A study of Danio rerio with 10 samples.

Results

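Whole embryos that lack a functional gpc4 gene were compared with wildtype embryos at the start of somite formation, by the RNA summed over all cells of each embryo. The comparison holds 7 of the 10 embryos of the series, namely every embryo with the genotype gpc4-/- (3) and every embryo with the genotype WT (4), and it covers all genes. The remaining 3 embryos, dact1-/-;dact2-/- compound mutants, were used where the mutants were set against each other and in an alternative fit of the comparison with wildtype. All embryos carry the strain label Tubingen and the tissue label whole embryo. The sample labels put the stage at 3 somites, whereas the methods put it at 4. The gpc4 line came from a stock centre as gpc4hi1688Tg/+, an allele made by an insertion into the gene. Mutants were picked by their short body axis and could not be genotyped, and whether the wildtype embryos came from the same parents was not given in the sources used here. Each embryo was dissociated alone and gave 1 library, so the embryo is the replicate.

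Gpc4 is a glypican, a proteoglycan that is anchored to the outer face of the cell membrane and carries heparan sulfate chains. In zebrafish it is known as the product of the knypek locus. It binds Wnt ligands and acts in noncanonical Wnt signaling, the branch that steers cell polarity and the movements of convergent extension, by which tissues narrow and lengthen during gastrulation. Embryos without it have a short and broad axis.

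Values are counts of unique molecular identifiers (UMIs), each standing for 1 captured RNA molecule. They were summed over cells that had 1500 UMIs or more, had 750 genes or more and took under 5% of their UMIs from mitochondrial genes. These criteria left 5495 of 8529 wildtype droplets (976 to 2212 per embryo) and 4966 of 5923 gpc4 mutant droplets (1261 to 1864 per embryo). The sums held between 13205839 and 20468237 UMIs in wildtype embryos and between 10388568 and 18296357 in gpc4 mutants. Any 2 of the 7 libraries shared at most 2 cell barcodes. The level of a gene is its CPM, its UMIs scaled to a total of 1000000 for that embryo. A lower level in such a sum can come from fewer cells of a type or from less RNA per cell, and these cannot be told apart here.

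Wildtype replicate 1 stood apart from the other 6 embryos. Its log2 CPM values correlated with theirs at 0.943 to 0.954 across genes, against 0.975 to 0.990 between any of those 6. Ribosomal protein genes took 21.7% of its UMIs, against 27.4% to 29.7% in the others. It had 0.39 CPM of the embryonic globin gene hbbe3, against 39.7 to 84.3 CPM in wildtype replicates 2, 3 and 4. Its summed level of maternal and early zygotic genes was 6608 CPM, against 3268 to 3957 CPM, and that of cell cycle genes 8657 CPM, against 6356 to 6606 CPM. Every comparison was therefore made with all 4 wildtype embryos and again with replicates 2, 3 and 4.

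The targeted gene was examined first. gpc4 (ENSDARG00000015472) was present at 68.3, 58.3, 53.9 and 50.5 CPM in wildtype replicates 1 to 4, and at 15.19, 17.3 and 13.5 CPM in the 3 mutants. Every mutant lay below every wildtype embryo, and a part of the RNA was still present in each mutant. After TMM normalization the level was 57.0 ± 10.5 CPM in wildtype (SD, n = 4) and 15.7 ± 1.64 CPM in mutants (n = 3). The two-sided exact permutation p was 0.0286, the smallest that 4 against 3 embryos allow. With cells thinned to 1500 UMIs each, 6.86% to 10.2% of wildtype cells and 1.39% to 3.17% of mutant cells held a gpc4 UMI. Without thinning, the shares were 24.5% to 53.4% and 6.87% to 17.5%. No cell type known to lack gpc4 was at hand to measure the background from free RNA, whose part in these shares was not tested. Shares with a UMI rest on counting and say nothing of how many cells express a gene.

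The genes that the study mutated in its other line were also measured. dact2, a regulator of Wnt signaling, had 40.8 to 70.35 CPM in wildtype embryos and 47.3 to 54.5 CPM in gpc4 mutants, and dact1 had 5.57 to 6.44 CPM and 4.81 to 6.64 CPM. Neither passed the test with 4 wildtype embryos (adjusted p = 0.96 and 0.965). Of the glypicans, 4 were abundant enough to be tested, and gpc4 was the only one called.

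A gene was called when the quasi-likelihood test of edgeR gave an adjusted p under 0.1 and the log2 fold change exceeded 0.58 in size, the thresholds of the methods. With 4 wildtype embryos 20 of 14639 genes were called (0.137%), of which 10 were higher (0.0683%) and 10 lower (0.0683%) in mutants. With wildtype replicates 2, 3 and 4, 346 of 14437 genes were called (2.4%), of which 188 were higher (1.3%) and 158 lower (1.09%). All 20 genes of the first comparison were also called in the second. The median log2 fold change over all genes tested was 0.00 in the first comparison and -0.01 in the second. Under an unadjusted p of 0.05 there were 1189 and 2378 genes. Single embryos moved these counts. In the first comparison the count was 6, 5 and 5 without wildtype replicates 2, 3 and 4, and 11, 1 and 2 without gpc4 mutant replicates 1, 2 and 3. In the second it was 91, 96 and 115 without wildtype replicates 2, 3 and 4, and 692 without gpc4 mutant replicate 2.

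**Figure D1:**
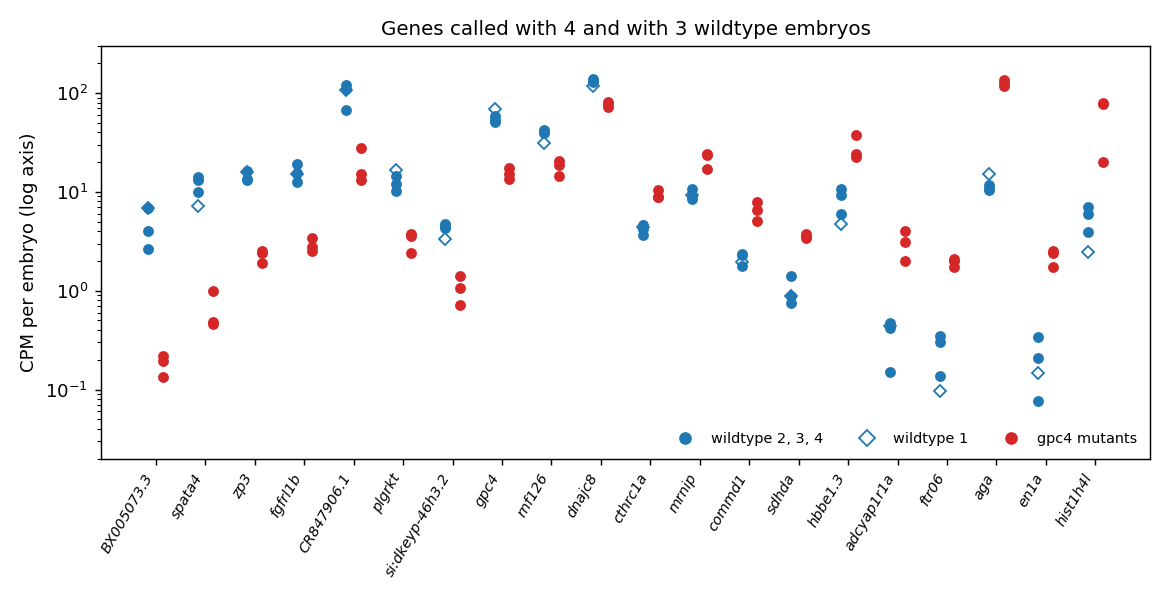
Level of the 20 genes called in both comparisons in each embryo, in CPM on a log axis, ordered from the lowest to the highest log2 fold change with 4 wildtype embryos. Filled blue points are wildtype replicates 2, 3 and 4, open diamonds wildtype replicate 1, and red points the 3 gpc4 mutants, with each symbol 1 embryo. For every gene shown, all mutants lie on 1 side of all wildtype embryos. The genes were chosen by a test between these embryos, so that this gap adds no support. The level of aga rises from 10.45 to 15.05 CPM in wildtype to 117 to 136 CPM in mutants.

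The gene with the smallest p in both comparisons was aga, which encodes aspartylglucosaminidase, a lysosomal enzyme that cleaves the bond between asparagine and the sugar chains of glycoproteins. aga had 15.05, 10.75, 10.45 and 11.75 CPM in wildtype replicates 1 to 4 and 136, 117 and 127 CPM in the 3 mutants. The mutants lay far above every wildtype embryo and close to each other. The mean rose from 12 ± 2.11 CPM (SD, n = 4) to 127 ± 9.61 CPM (n = 3), and the log2 fold change was 3.47 ± 0.19 (SE, adjusted p = 9.98e-04). With wildtype replicates 2, 3 and 4 it was 3.62 ± 0.13 (adjusted p = 2.4e-05). With cells thinned to 1500 UMIs each, 1.27% to 2.03% of wildtype cells and 14.6% to 18.7% of mutant cells held an aga UMI. The unthinned shares were 6.46% to 19.8% and 43.2% to 60.4%. The gene was called under each of the 17 alternative settings of the comparison with 4 wildtype embryos.

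Other genes of enzymes and the nucleus were higher in mutants in both comparisons. mrnip, whose product works with the MRN complex in the response to DNA damage, had 9.33, 10.6, 8.98 and 8.56 CPM in wildtype embryos and 17.1, 23.4 and 24.4 CPM in mutants (log2 fold change 1.27 ± 0.16 with 4 wildtype embryos, adjusted p = 0.069). commd1, known for roles in copper handling and NF-kB control, had 1.95, 2.35, 2.3 and 1.77 CPM in wildtype embryos and 6.61, 5.12 and 7.89 CPM in mutants. sdhda, a subunit of succinate dehydrogenase, had 0.879, 0.757, 1.39 and 0.883 CPM against 3.39, 3.59 and 3.75 CPM. In all of these the groups did not overlap. Genes were called by a test between the same embryos, so that the gap adds no support of its own.

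Genes of signaling and patterning were also among them, at low levels. en1a, an engrailed homeobox gene of the midbrain-hindbrain region, had 0.147, 0.0757, 0.209 and 0.340 CPM in wildtype embryos and 2.51, 1.73 and 2.41 CPM in mutants (log2 fold change 3.56 ± 0.45, adjusted p = 0.071). adcyap1r1a, a receptor for the peptide PACAP, had 0.440, 0.151, 0.418 and 0.475 CPM against 3.12, 4.05 and 2.02 CPM (3.07 ± 0.41, adjusted p = 0.0745). cthrc1a, a secreted protein with a collagen triple helix repeat, had 4.40, 4.62, 3.62 and 4.21 CPM against 10.6, 8.90 and 8.95 CPM. The remaining higher genes were ftr06, of the finTRIM family, hbbe1.3, an embryonic globin, and the histone H4 gene hist1h4l (ENSDARG00000115054).

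The values of hist1h4l differed between the mutants. It had 2.49, 7.04, 3.90 and 5.98 CPM in wildtype embryos and 20.0, 79.1 and 77.5 CPM in mutants. Histone H4 genes are near-identical copies, with 24 tested entries of this symbol, so the split of reads between them is uncertain. The other entry called (ENSDARG00000114534) was lower in mutants with wildtype replicates 2, 3 and 4, which had 33.5, 19.6 and 41.3 CPM against 12.3, 9.1 and 5.58 CPM in mutants, while wildtype replicate 1 had 6.6 CPM.

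Among the genes lower in mutants, zp3 encodes a glycoprotein of the egg envelope. It had 16.0, 13.4, 16.2 and 13.2 CPM in wildtype embryos and 2.51, 2.39 and 1.93 CPM in mutants (log2 fold change -2.60 ± 0.20, adjusted p = 0.0066). Members of the zona pellucida family have close copies, so its counts are uncertain in the same way. fgfrl1b, an FGF receptor-like protein without a kinase domain inside the cell, had 15.3, 19.0, 15.6 and 12.7 CPM against 3.39, 2.52 and 2.79 CPM (-2.34 ± 0.22, adjusted p = 0.019). spata4 had 7.23, 13.2, 9.89 and 14.3 CPM against 0.984, 0.465 and 0.481 CPM (-3.94 ± 0.39, adjusted p = 0.019). For each of the 3, the lowest wildtype embryo lay well above the highest mutant.

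The other lower genes were of several kinds. plgrkt, a plasminogen receptor, had 16.8, 12, 10.2 and 14.4 CPM in wildtype embryos and 2.4, 3.79 and 3.56 CPM in mutants. The ubiquitin ligase gene rnf126 had 31.1, 41.9, 41.6 and 39.1 CPM against 14.4, 18.5 and 20.4 CPM. dnajc8, whose product is found in spliceosomes, changed least of the 20 genes, from 118, 129, 139 and 134 CPM to 72.9, 80.7 and 78.1 CPM (log2 fold change -0.67 ± 0.09, adjusted p = 0.0745). The genes BX005073.3, si:dkeyp-46h3.2 and CR847906.1, which are known only by clone names, made up the rest.

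Both comparisons share their mutants and most of their wildtype embryos, so that they are not independent of each other. Of the 346 genes, 340 had the same sign of log2 fold change with 4 wildtype embryos. At 195 of the 346 (56.4%), wildtype replicate 1 lay on the mutant side of the midpoint between the means of the mutants and of wildtype replicates 2, 3 and 4. Over all genes tested this share was 54.2%. At the 3068 genes that separated the groups without replicate 1 but were not called it was 54.4%. All of these shares are those of replicate 1, so they do not give how often another wildtype embryo would lie there. Among the called genes it was 104 of the 158 lower genes (65.8%) and 91 of the 188 higher genes (48.4%). At 159 of the 346 replicate 1 lay within the range of the mutants or beyond it, a count given without its share over all genes.

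**Figure D2:**
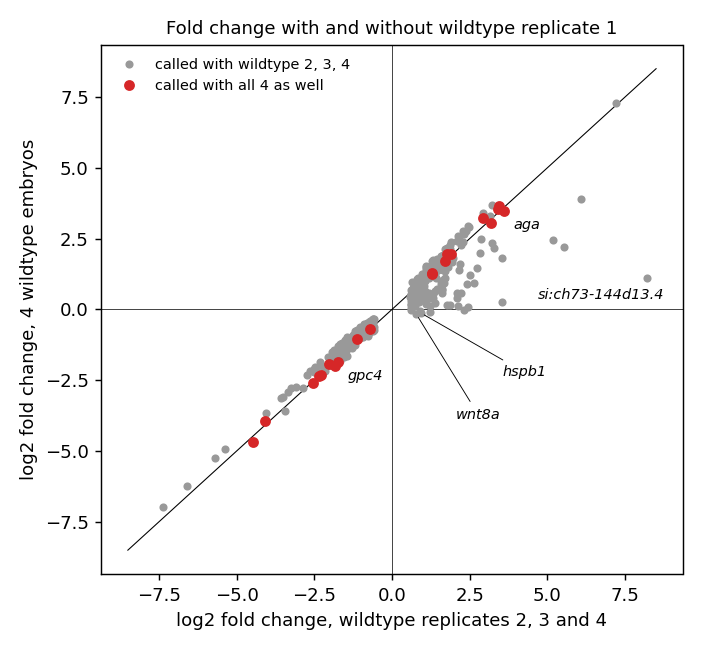
Log2 fold change of the 346 genes called with wildtype replicates 2, 3 and 4 (horizontal axis) and the same with all 4 wildtype embryos (vertical axis), 1 point a gene. Red points are the 20 genes called in both, and the diagonal marks equal values. Most points lie near the diagonal, 6 genes, hspb1 and wnt8a among them, turn from above 0 to below 0, and si:ch73-144d13.4 falls from 8.19 to 1.12.

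Some of the most separated genes of the second comparison no longer separated the groups once wildtype replicate 1 was counted. The gene si:ch73-144d13.4 held 1, 1 and 0 UMIs in wildtype replicates 2, 3 and 4, and 14.98, 13.1 and 18.5 CPM in mutants, a ratio of 320.5 (exact 95% counting interval 88.4 to 2652). Wildtype replicate 1 had 27.8 CPM, more than any mutant. For si:ch211-208h16.4 the case was the reverse, with 3.26, 3.48 and 3.40 CPM in wildtype replicates 2, 3 and 4, 3 UMIs in the mutants together and 0 in wildtype replicate 1. hspb1, a small heat shock protein, had 921, 872 and 937 CPM in those wildtype embryos and 1501, 1430 and 1993 CPM in mutants (log2 fold change 0.94 ± 0.14, adjusted p = 0.023), but 4646 CPM in replicate 1. With 4 wildtype embryos its log2 fold change was -0.13 (adjusted p = 0.979). mdkb, a midkine growth factor gene, had 82.2, 92.8 and 72.2 CPM against 200.5, 143 and 149 CPM in mutants and 347 CPM in replicate 1. pttg1ipb and zgc:171776 had the same arrangement, with replicate 1 above every mutant.

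For another gene replicate 1 lay between the remaining wildtype embryos and the mutants. qdpra, which encodes the reductase that renews tetrahydrobiopterin, had 4.62, 4.74 and 3.53 CPM in wildtype replicates 2, 3 and 4, 22.3 CPM in replicate 1 and 35.0, 35.8 and 46.5 CPM in mutants. The gap between its groups held with all 4 wildtype embryos, where the log2 fold change was 2.16 ± 0.64 and the adjusted p 0.448. For adgra1a, an adhesion G protein-coupled receptor gene, replicate 1 was with the mutants, at 0.0977 CPM against 4.24, 7.31 and 8.69 CPM in the other wildtype embryos and 0.0547, 0.133 and 0.193 CPM in mutants. CR385053.3 had 5.22, 7.17 and 7.40 CPM in wildtype replicates 2, 3 and 4 and 0.874, 1.26 and 1.15 CPM in mutants, with replicate 1 below every mutant at 0.293 CPM. CU638714.1 was arranged in the same way, at 10.1 to 12.8 CPM in those wildtype embryos, 3.25 to 3.66 CPM in mutants and 1.51 CPM in replicate 1. For CABZ01078594.1, with 2.72 to 3.86 CPM in those wildtype embryos and 7.89 to 9.17 CPM in mutants, replicate 1 lay on the far side from the mutants, at 0.733 CPM. These 3 genes are known only by clone names.

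Lists of genes by pathway and cell type were then examined. Of 39 lists, 5 held a called gene with 4 wildtype embryos and 20 with wildtype replicates 2, 3 and 4. The counts that follow are from the second comparison unless all 4 embryos are named. Calls by edgeR are read against the 2.4% of all genes called there. Those under an unadjusted p of 0.05 are read against 2378 of 14437 genes tested there, and 1189 of 14639 with all 4 wildtype embryos. For lists without a call by edgeR, other counts are given here. With wildtype replicates 2, 3 and 4 there were 19 of them, with 103 of 526 entries under an unadjusted p of 0.05, where a gene counts once in each list that holds it. Whatever their p in edgeR, DESeq2 with apeglm called 14 entries of these lists, DESeq2 without shrinkage 18 and limma voom with sample weights 8. Over all genes these tools called 442 of 16615, 539 of 16615 and 351 of 14437. With 4 wildtype embryos there were 34 such lists, with 112 of 1019 entries under 0.05. Among all entries of the 34 lists these tools called 20, 20 and 27. Over all genes they called 163 of 17177, 195 of 17177 and 311 of 14639 there. In that fit limma voom gave wildtype replicate 1 a weight of 0.112, against 1.83 to 2.13 for wildtype replicates 2, 3 and 4. Its calls with all 4 wildtype embryos therefore rest little on replicate 1. The level summed over a list did not overlap between the 3 mutants and all 4 wildtype embryos for 6 of the 39 lists. The glypican list, which holds gpc4 itself, was among the 6. For single genes the groups did not overlap at 11.59% of those tested. A sum over a list is another measure than a single gene, so this share is no rate for the lists.

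Markers of adaxial cells and slow muscle, the first muscle of the embryo, were higher in mutants in 6 of 45 tested genes and lower in none. Of the 45, 39 had a positive log2 fold change and the median was 0.66, against -0.01 over all genes. acta1b, a skeletal muscle actin, had 18.3, 24.9 and 17.5 CPM in wildtype replicates 2, 3 and 4, 4.98 CPM in replicate 1 and 65.2, 40.2 and 37.4 CPM in mutants. All mutants lay above all wildtype embryos (1.34 ± 0.26, adjusted p = 0.053). actc1b, a second sarcomeric actin, had 49.5, 57.0 and 31.5 CPM, 15.4 CPM in replicate 1 and 212, 98.1 and 105 CPM in mutants (1.70 ± 0.35, adjusted p = 0.068).

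The other called members of the muscle list were stac3, which couples excitation to contraction, the splicing factor gene rbfox1l and the myosin light chain genes myl10 and myl13. rbfox1l had 14.2, 13.7 and 11.2 CPM, 5.18 CPM in replicate 1 and 35.5, 29.2 and 17.5 CPM in mutants (1.18 ± 0.25, adjusted p = 0.077). The summed level of the list was 2054, 2188 and 1483 CPM in wildtype replicates 2, 3 and 4, 1232 CPM in replicate 1 and 3752, 2771 and 2266 CPM in mutants. The lowest mutant was just above the highest wildtype embryo. With all 4 wildtype embryos edgeR called 0 members, at a median of 0.87 with 40 of 45 values positive. There 25 members had an unadjusted p under 0.05, all of them higher, and DESeq2 called 10 and limma voom with sample weights 6. Actin and myosin light chain genes have close copies.

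Embryonic globins, the oxygen carriers of the first red blood cells, were higher in 4 of 9 tested genes. hbbe3 had 84.3, 74.5 and 39.7 CPM in wildtype replicates 2, 3 and 4, 0.39 CPM in replicate 1 and 126, 162 and 171 CPM in mutants (1.29 ± 0.25, adjusted p = 0.054). hbbe1.3 had 10.6, 5.92 and 9.30 CPM, 4.79 CPM in replicate 1 and 22.7, 37.5 and 24.4 CPM in mutants. It was the only globin called with all 4 wildtype embryos as well (1.96 ± 0.28, adjusted p = 0.08). hbae1.3 and hbbe2 were the other called members. Of the 2 tested entries named hbae1.3 only 1 was called, and neighbouring globin genes are near-identical copies. The summed level was 227, 186 and 102 CPM, 18.6 CPM in replicate 1 and 259, 362 and 348 CPM in mutants, so that the groups did not overlap. Of the 44 tested blood and vessel markers, the apelin receptor gene aplnra and hbbe3 were called, and the median was 0.10. For aplnra replicate 1 was above every mutant, at 84.7 CPM against 50.2 to 55.5 CPM. With all 4 wildtype embryos its log2 fold change was 0.17 (adjusted p = 0.942).

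Genes of the p53 response and apoptosis were higher in 4 of 35 tested genes, with a median of 0.21 and 26 positive values. ccng1, which encodes cyclin G1, a p53 target, had 185, 199 and 196 CPM in wildtype replicates 2, 3 and 4, 238 CPM in replicate 1 and 284, 326 and 272 CPM in mutants (0.69 ± 0.08, adjusted p = 0.015). rps27l, a p53 target in human cells, had 111, 106 and 112 CPM, 107 CPM in replicate 1 and 159, 203 and 140 CPM in mutants (0.69 ± 0.12, adjusted p = 0.039). For both genes all 4 wildtype embryos lay below all mutants, while neither was called with all 4 (adjusted p = 0.292 and 0.158). The pro-apoptotic gene baxb and the stress gene sesn2 were the other called members. For baxb replicate 1, with 1.95 CPM, was within the range of the mutants, 1.93 to 3.39 CPM. For sesn2 replicate 1 was above every mutant, at 7.77 CPM against 4.43 to 5.78 CPM. Neither was called with all 4 wildtype embryos (adjusted p = 0.502 and 0.894). The summed level was 1372, 1401 and 1412 CPM, 1401 CPM in replicate 1 and 1560, 1799 and 1529 CPM in mutants. Immediate early genes, which cells turn on during dissociation, lay higher beside it, with a summed level of 494 to 510 CPM in wildtype embryos and 517 to 540 CPM in mutants. Of their 26 tested genes edgeR, DESeq2 and limma voom called 0, with 4 under an unadjusted p of 0.05, and their part in the result was not tested.

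**Figure D3:**
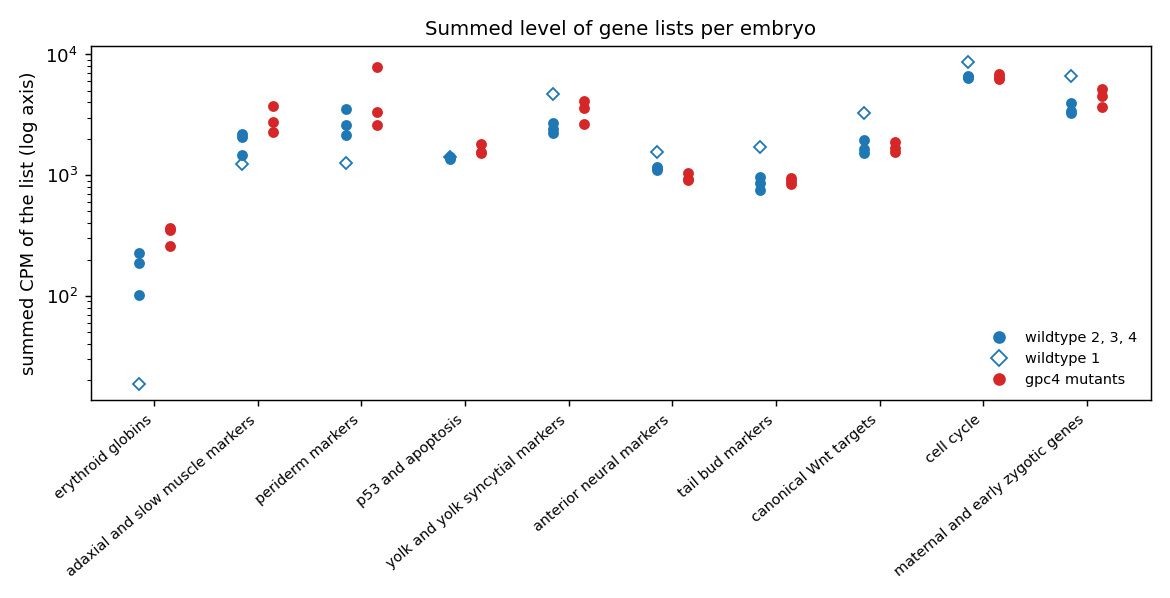
Summed level of 10 gene lists in each embryo, in CPM on a log axis. Filled blue points are wildtype replicates 2, 3 and 4, open diamonds wildtype replicate 1 and red points the 3 gpc4 mutants, with each symbol 1 embryo. Globins, muscle markers and p53 genes lie higher and anterior neural markers lower in every mutant than in every wildtype embryo, and wildtype replicate 1 lies outside the range of the other wildtype embryos in every list shown but that of p53 genes.

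Markers of the yolk and of lipid transport were higher in 3 of 16 tested genes, while the list went both ways as a whole, with 9 positive values and a median of 0.05. With all 4 wildtype embryos edgeR called 0 of the 16, with 3 under an unadjusted p of 0.05, and DESeq2 called 2 and limma voom 3. apoc1, an apolipoprotein gene, had 1169, 1172 and 1357 CPM in wildtype replicates 2, 3 and 4 and 2243, 1667 and 2581 CPM in mutants (0.91 ± 0.18, adjusted p = 0.055), but 2643 CPM in replicate 1. apoc2, the cofactor of lipoprotein lipase, had 4.62, 5.36 and 5.64 CPM, 1.71 CPM in replicate 1 and 12.7, 10.2 and 13.9 CPM in mutants. The fatty acid binding protein gene fabp2 was the third. In the glutathione and redox list 2 of 38 genes were higher, namely gpx4a, which reduces lipid peroxides, and mgst1.2, a glutathione transferase. For gpx4a replicate 1, with 62.0 CPM, was within the range of the mutants, 46.2 to 63.1 CPM.

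Among signaling genes the calls differed between lists. In the FGF list fgfrl1b was lower and the ligand genes fgf24 and fgf3 were higher, of 27 tested. Both fgfrl1b and fgf24 lie on chromosome 14, which also carries gpc4. fgf24 had 5.91, 4.53 and 4.55 CPM in wildtype replicates 2, 3 and 4 and 8.20, 8.97 and 9.14 CPM in mutants (0.90 ± 0.16, adjusted p = 0.045), but 13.2 CPM in replicate 1. wnt8a (ENSDARG00000078507), a Wnt ligand of the tail bud, had 6.06, 5.08 and 6.99 CPM against 8.96, 10.6 and 10.1 CPM in mutants (0.79 ± 0.16, adjusted p = 0.061), and 27.2 CPM in replicate 1. With all 4 wildtype embryos the log2 fold change of wnt8a was -0.18 (adjusted p = 0.966). Another gene entry of the symbol wnt8a (ENSDARG00000052910) had 6.82, 5.57 and 7.61 CPM in wildtype replicates 2, 3 and 4 against 6.78, 8.37 and 9.34 CPM in mutants and was not called (adjusted p = 0.349). Neither fgf24 nor fgf3 was called with all 4 wildtype embryos (adjusted p = 0.881 and 0.868).

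Of 37 tested genes of noncanonical Wnt signaling and planar cell polarity, 1 was called, and the median was -0.04. This was celsr2 (ENSDARG00000094388), an atypical cadherin of the polarity pathway, with 3.33, 3.2 and 2.1 CPM in wildtype replicates 2, 3 and 4, 0.684 CPM in replicate 1 and 0.601, 0.531 and 0.193 CPM in mutants (-2.50 ± 0.39, adjusted p = 0.029). The more abundant of the 2 tested entries named celsr2 (ENSDARG00000019726) had 14.5, 13.6 and 15.08 CPM against 5.41, 12.7 and 9.05 CPM and was not called (adjusted p = 0.257), and the split of reads between them is uncertain. In heparan sulfate synthesis 1 of 29 was called. It was xylt1, whose product adds the first sugar of the chain, with 7.27, 13.7 and 13.0 CPM, 6.60 CPM in replicate 1 and 4.81, 4.92 and 5.97 CPM in mutants (-1.03 ± 0.25, adjusted p = 0.099). No gene was called by edgeR among 23 canonical Wnt targets, 33 genes of the BMP pathway, 19 of the retinoic acid pathway, 36 of Notch and the segmentation clock, 40 Hox genes, 24 cadherins and 51 cell cycle genes. An unadjusted p under 0.05 was found for 4, 8, 3, 3, 8, 5 and 17 of them in that order, and of the 17 cell cycle genes 16 were higher in mutants. DESeq2 without shrinkage called 2 canonical Wnt targets and 1 gene in each of the other lists but that of Hox genes, where it called 0. None of these lists held a call by edgeR with 4 wildtype embryos either. The lean of the cell cycle list did not hold there. Of its 51 genes 18 had a positive log2 fold change with all 4, at a median of -0.06. Without replicate 1 it was 34, at a median of 0.12. An unadjusted p under 0.05 was found with all 4 for 2 cell cycle genes, 1 of them higher. In the hedgehog list the homeobox gene nkx2.4b was higher, of 23 tested, with replicate 1 above every mutant. The list as a whole leaned the other way, with 8 positive values and a median of -0.10, and its summed level was 702 to 727 CPM in wildtype replicates 2, 3 and 4, 688 CPM in replicate 1 and 586 to 688 CPM in mutants.

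Anterior neural markers were lower in 2 of 49 tested genes, with a median of -0.20 and 16 positive values. emx3, a homeobox gene of the forebrain, had 17.5, 15.7 and 15.21 CPM in wildtype replicates 2, 3 and 4, 23.6 CPM in replicate 1 and 8.85, 9.37 and 8.38 CPM in mutants. All wildtype embryos lay above all mutants (-0.77 ± 0.12, adjusted p = 0.031), and with all 4 the log2 fold change was -0.95 ± 0.21 (adjusted p = 0.287). six6b, a homeobox gene of the eye field, had 2.95, 2.51 and 1.90 CPM against 0.711, 0.598 and 0.866 CPM, and 0 UMIs in replicate 1. The summed level was 1156, 1108 and 1175 CPM, 1570 CPM in replicate 1 and 929, 1049 and 913 CPM in mutants. The somite gene uncx was higher, of 24 somite markers tested.

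Periderm is the outermost cell layer of the embryo and is rich in keratins, the intermediate filament proteins of epithelia. Its list had 30 positive values of 34 tested and a median of 0.92, but 1 call, the annexin gene anxa1a. The summed level of this list was 2138, 2616 and 3540 CPM in wildtype replicates 2, 3 and 4 and 1259 CPM in replicate 1. In mutants it was 7813, 3347 and 2608 CPM, so that only mutant replicate 1 lay above the wildtype range. anxa1a had 3.48, 5.43 and 5.03 CPM in wildtype replicates 2, 3 and 4, 0.928 CPM in replicate 1 and 29.5, 28.8 and 6.93 CPM in mutants (2.33 ± 0.49, adjusted p = 0.072). Of 27 tested keratins and other intermediate filament genes 22 were positive with a median of 0.69, and edgeR called 0. An unadjusted p under 0.05 was found for 11 of them, 9 higher, and DESeq2 called 2 and limma voom 1. Their summed level was 2187, 2387 and 3450 CPM in wildtype replicates 2, 3 and 4, 1650 CPM in replicate 1 and 7661, 3289 and 2338 CPM in mutants. The high value was that of mutant replicate 1, and the other mutants lay within the range of the wildtype embryos. With all 4 wildtype embryos the median of the keratin list was 0.89, again with 0 calls. Calpains, a family of calcium-dependent proteases, had 0 calls of 14, and capn8 had 7.50 to 15.6 CPM in wildtype embryos and 11.3 to 16.0 CPM in gpc4 mutants (adjusted p = 0.78 with 4 wildtype embryos).

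Several other cell types had no called marker. There were 0 calls by edgeR among 22 notochord, 17 hatching gland, 24 neural crest, 36 heart field and cephalic mesoderm, 23 endoderm and 12 germ cell markers. Under an unadjusted p of 0.05 there were 2, 5, 3, 7, 4 and 2 of them in that order, and DESeq2 without shrinkage called 2 notochord, 1 hatching gland and 3 heart field and cephalic mesoderm markers. Hatching gland markers summed to 1132 to 2931 CPM in mutants and 932 to 2677 CPM in wildtype embryos. Of 18 pronephros markers 2 had a positive log2 fold change, with a median of -0.21 and 0 calls. The lists of the lysosome and of maternal genes had their calls in single genes, aga (higher) and lamp1a (lower) of 39, and zp3 (lower) and apoc1 (higher) of 26.

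The called genes were next placed on chromosomes by their names in a RefSeq gene table of the assembly GRCz12tu. This placed 90.2% of the genes tested and 81.8% of those called with wildtype replicates 2, 3 and 4. Chromosome 14, which carries gpc4, held 37 called genes of 496 tested (7.46%), 17 higher and 20 lower, against 2.17% over all placed genes. The next highest share was 3.57%, on chromosome 24. With 4 wildtype embryos 5 of the 16 placed genes lay on chromosome 14, namely gpc4, aga, spata4, fgfrl1b and mrnip, which is 1.00% of the 498 genes tested there against 0.121% over all. These counts are a description, without a test. A difference between gpc4 mutants and wildtype embryos in other variants on the chromosome that carries the insertion cannot be told apart from the mutation by this design.

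**Figure D4:**
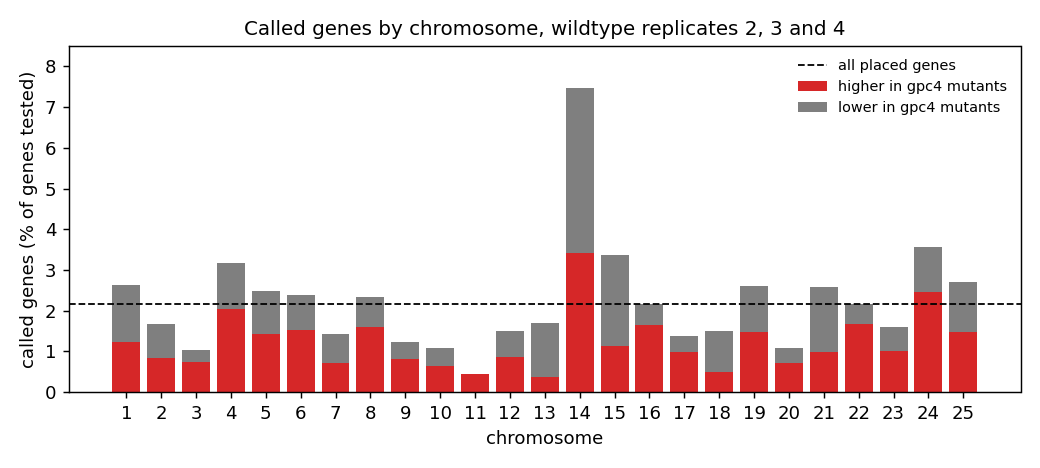
Called genes on each chromosome as a percentage of the genes tested there, with wildtype replicates 2, 3 and 4. Red parts of the bars are genes higher and grey parts genes lower in gpc4 mutants, and the dashed line marks 2.17%, the share over all placed genes. Chromosome 14 reaches 7.46% and every other chromosome stays at or below 3.57%.

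Along chromosome 14 the called genes were spread over the whole order of genes. aga was the 84th and spata4 the 82nd tested gene from gpc4 on one side, with fgfrl1b at 111 and qdpra at 155, while mrnip was at 135 on the other side. Among the nearest 50 tested genes on each side, 5 of 100 were called, all higher in mutants. From 51 to 100 it was 6 of 100, from 101 to 200 it was 19 of 199, and beyond it 6 of 96. These distances were grouped after the values were seen. The p53 target ccng1, the forebrain gene emx3 and the FGF ligand gene fgf24 are also on this chromosome.

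**Figure D5:**
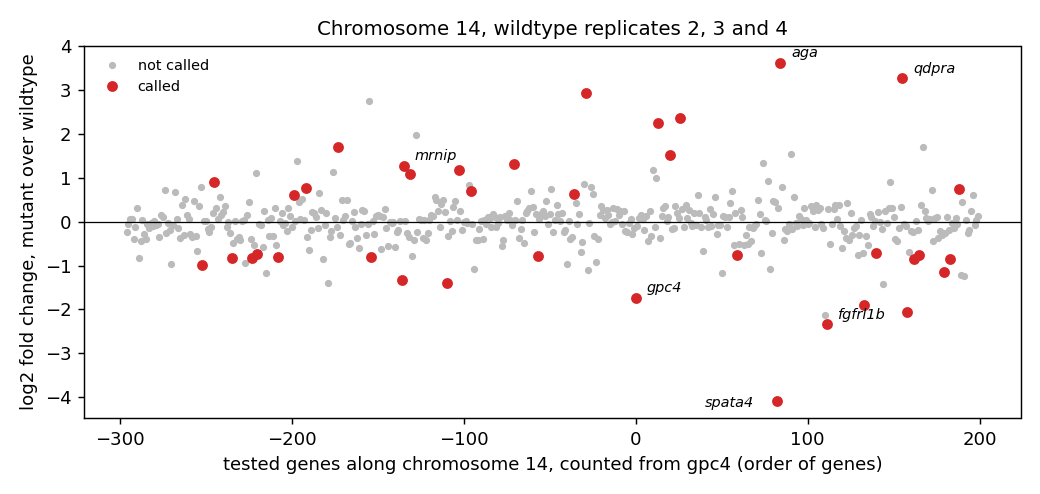
Log2 fold change of each placed gene tested on chromosome 14 with wildtype replicates 2, 3 and 4, against its place in the order of tested genes counted from gpc4 at 0. Red points are the called genes and grey points the others, with each point 1 gene. aga at 3.62 and spata4 at -4.09 lie within 84 genes of gpc4 on the same side, and called genes of both directions reach both arms of the plot.

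The gpc4 mutants were last compared with the dact1-/-;dact2-/- compound mutants, whose body axis is short as well, in a fit of all 10 embryos. This tests the difference between the mutants and does not use the wildtype embryos as the reference. Of 14926 genes 40 were called (0.268%), 14 higher (0.0938%) and 26 lower (0.174%) in gpc4 mutants. Of the 32 placed ones 9 lay on chromosome 14. This is 1.77% of the 509 genes tested there, against 0.239% over all placed genes, a description without a test. Without wildtype replicate 1 in the fit the count of called genes was 407, and with the 6 mutants alone it was 193. Mutants of the same replicate number deviated together, weakly for replicate 3, so the fit was also made with the replicate number as a block. Whether the numbers pair these embryos is not known. Over all 10 embryos the block left 12 genes, all among the 40, and with the 6 mutants alone it gave 576 (320 higher, 256 lower), which held all 40. Leaving out any 1 of the 6 mutants gave 6 to 16. Of the 346 genes called against wildtype replicates 2, 3 and 4, 26 also differed from the compound mutants in the same direction, 9 higher and 17 lower. Both tests use the same gpc4 mutants, so they are not independent of each other for these 26 genes.

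Among these, aga had 11.5, 11.1 and 11.5 CPM in the compound mutants, as in wildtype embryos, and the log2 difference from the gpc4 mutants was 3.42 ± 0.19 (adjusted p = 3.9e-05). gpc4 had 41.4, 58.1 and 48.0 CPM there (-1.73, adjusted p = 0.0020). fgfrl1b had 11, 17 and 16.6 CPM (-2.38, adjusted p = 0.0020), spata4 16.9, 11 and 9.89 CPM (-4.29, adjusted p = 0.0024) and zp3 14.7, 14.7 and 13.8 CPM (-2.70, adjusted p = 1.6e-04). For each of these genes the compound mutants were within or near the wildtype range. commd1, adcyap1r1a, plgrkt and hist1h4l were called in this comparison too (adjusted p = 0.034, 0.029, 0.017 and 0.040). With the replicate block over all 10 embryos commd1, adcyap1r1a and plgrkt were no longer called (adjusted p = 0.106, 0.155 and 0.111), while with the block in the 6 mutants alone they were (adjusted p = 0.016, 0.027 and 0.016).

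Other genes did not pass this test, which does not show that the mutants were alike. acta1b had 67.4, 30.4 and 49.2 CPM in the compound mutants and actc1b 172, 75.0 and 119 CPM, beside 65.2, 40.2 and 37.4 CPM and 212, 98.1 and 105 CPM in gpc4 mutants. Their log2 differences were -0.11 ± 0.48 and 0.12 ± 0.49 (adjusted p = 0.985 for both). BX005073.3, at 2.65 to 6.89 CPM in wildtype embryos, had 0.133 to 0.219 CPM in gpc4 mutants and 0.264, 0.496 and 0 CPM in compound mutants. ftr06 had 1.75, 1.99 and 2.12 CPM in gpc4 mutants and 1.85, 3.67 and 2.80 CPM in compound mutants, against 0.0977 to 0.348 CPM in wildtype embryos. The calpain gene capn8 had 36.2, 48.7 and 38.5 CPM in them and was lower in gpc4 mutants by this test (-1.65, adjusted p = 0.061; with the replicate block 0.195 over all 10 embryos and 0.018 in the 6 mutants alone).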

How the data were processed

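Single-cell libraries of the 10x Genomics 3' kit (version 3) were compared. The authors aligned reads to GRCz11 with Cell Ranger 6.1.0, per the labels, and deposited, for each embryo, a table of UMI counts by droplet that was neither normalized nor filtered for quality. Doublets were not removed here, and summing over all cells keeps their UMIs. Depth per embryo is given with the results.

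Groups were taken from the sample labels. Counts of cells past the criteria of the results section were summed per embryo and tested with the quasi-likelihood test of edgeR 4.0.16 after TMM normalization and filterByExpr, with Benjamini-Hochberg adjustment over all genes tested. All adjusted p-values come from this test unless another tool is named. The standard error was the log2 fold change divided by the square root of F. Alternatives were the tool of the methods, DESeq2 with apeglm (DESeq2 1.42.0, apeglm 1.24.0, R 4.3.3), DESeq2 without shrinkage, limma voom with sample quality weights (limma 3.58.1), DESeq2 size factors, no filter on low counts, a further filter on genes per UMI (log10 ratio above 0.8), all droplets, cells thinned to 1500 UMIs, the replicate number as a block, a fit with the dact1/2 mutants and leaving out each embryo. Deviations from the group means in log2 CPM (1 CPM added) were correlated between gpc4 and dact1/2 mutants. The values were 0.405, 0.379 and 0.116 for the same replicate number and -0.375 to -0.0226 for different numbers. Deviations within a group cancel out, so these values are tied to each other and do not by themselves show a pairing. The labels do not say what a number shares. The edgeR step was tested on simulated data whose spread was estimated without wildtype replicate 1, so that test does not cover an outlying embryo.

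Named genes were gpc4, dact1, dact2, capn8, those called in both comparisons, for wildtype replicates 2, 3 and 4 the first 12 calls by p in either direction without overlap of log2 CPM (1 CPM added), and up to 4 called genes per list. The groups, the lists and these rules were chosen with earlier results of these data known. myl10, myl13, the second entries named hist1h4l, celsr2 and wnt8a and the znf genes of the closing section were added after their values were seen. Lists are described by counts and medians, without a test. p-values measure the spread between embryos of separate libraries. Gene names for chromosomes came from a table of GRCz12tu, and no coordinates are given. 1 gene that the rule names is not reported here.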

Additional observations from a re-analysis of the deposited data

Results flagged for a closer look

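In 18 of 72 checked values wildtype replicate 1 was an outlier among the 4 wildtype embryos, and in 1 more it was replicate 3. An embryo counted as one when its gap to the nearest other embryo exceeded Dixon's 95% limit for the range of the 4, which chance alone gives in about 1 group of 20. For cells per embryo, replicate 3 was the highest (2212 cells against 976 to 1182), with a gap of 0.833 of the range. For the share of UMIs from ribosomal protein genes, replicate 1 was the lowest (21.7% against 28.0% to 28.6%), with a gap of 0.917. Most of the named genes were chosen in the comparison without replicate 1. That choice favours genes at which the other wildtype embryos lie close together. The rate by chance therefore does not hold for these genes.

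Of the 67 named genes 17 had replicate 1 as the outlier. It was the highest wildtype embryo for si:ch73-144d13.4 (gap 0.997 of the range), hspb1 (0.983), pttg1ipb (0.976), si:ch73-311h14.2 (0.973), zgc:171776 (0.953), BX284696.1 (0.948), qdpra (0.936), mdkb (0.925) and wnt8a (0.914). The same held at smaller gaps for fgf3 (0.873), apoc1 (0.872), gpx4a (0.863) and fgf24 (0.841). It was the lowest for si:ch211-149k12.3 (0.949), si:ch211-208h16.4 (0.935), si:ch211-286o17.1 (0.898) and uncx (0.864). BX284696.1 had 1.66 CPM in replicate 1, 0.0679 to 0.151 CPM in the other wildtype embryos and 5.96 to 9.63 CPM in gpc4 mutants, so that its groups stayed apart. si:ch211-149k12.3 had 1.27 CPM in replicate 1, 8.69 to 9.09 CPM in the others and 0.874 to 1.93 CPM in gpc4 mutants, and replicate 1 was among the mutants there.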

How the results depend on the processing

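With 4 wildtype embryos 20 genes were called by edgeR. The count was 163 with DESeq2 and apeglm, 195 with DESeq2 without shrinkage, 311 with limma voom and sample weights, 66 in a fit with the dact1/2 mutants and 13 with cells thinned to equal UMIs, of which 8 were among the 20. It ranged from 1 to 346 when 1 embryo was left out. Of the 163 genes of DESeq2 with apeglm 67.5% were higher in mutants, and of the 311 of limma voom 67.2%, against 50% of the 20. With wildtype replicates 2, 3 and 4 the count was 346, against 539 with DESeq2 without shrinkage, 127 with thinned cells and 91 to 692 with 1 embryo left out, and 322 to 507 under the other settings. Of the 346, 281 were called by DESeq2 with apeglm. Between the mutants 40 genes were called, against 407 without wildtype replicate 1 in the fit, 193 with the 6 mutants alone, 222 with DESeq2 and 6 to 16 with 1 mutant left out. With 4 wildtype embryos limma voom gave replicate 1 a weight of 0.112, against 1.83 to 2.13 for replicates 2, 3 and 4. The cause of these shifts in the counts was not tested. With the replicate number as a block the counts were 1, 59 and 12. An embryo that is alone with its number adds nothing to the group difference under this block. This held for wildtype replicate 4 in all of these fits, and for gpc4 mutant replicate 1 where wildtype replicate 1 was left out. The block therefore also leaves fewer embryos to measure the difference and its spread. The labels do not say what a number shares. Same-numbered wildtype and gpc4 embryos did not deviate together (correlations 0.092, 0.096 and -0.137), so no pairing by number was seen between them. Same-numbered mutants did (0.405, 0.379 and 0.116), which does not by itself show a pairing. The replicate block in the 6 mutants alone, an alternative chosen after seeing the data, gave 576 genes. With all 4 wildtype embryos hspb1 (-0.13) and wnt8a (-0.18) turned their direction, neither passing the test. The gpc4 difference kept its direction under every setting run, at -43.8 to -36.9 CPM with 1 embryo left out, where the exact permutation p was 0.1 or 0.0667, the smallest those numbers allow. With thinned cells 9593 genes had enough counts to be tested, against 14639 without thinning, so that depth limits what could be called there.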

Other observations

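Genes known only by clone names (prefixes si:, zgc:, im: or wu:, or a sequence accession) were called at 4.45% of 1887 tested with wildtype replicates 2, 3 and 4, 41 higher and 43 lower in gpc4 mutants, against 2.4% of all genes. With 4 wildtype embryos 3 of 1942 were called (0.1545%), all lower, a share near the 0.137% of all genes. At 55 of the 84 called genes wildtype replicate 1 lay on the mutant side of the midpoint. It did so at 54.2% of all genes tested and at 56.4% of the 346 called genes.

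Zinc finger genes with symbols that begin with znf were called at 10 of 250 tested (8 higher, 2 lower), a share of 4.0%, with wildtype replicates 2, 3 and 4. With 4 wildtype embryos 0 of 257 such genes were called. Many of them belong to large families of close copies, so the split of reads between them is uncertain. znf1147 had 0.151, 0.139 and 0.407 CPM in wildtype replicates 2, 3 and 4, 0.928 CPM in replicate 1 and 2.08, 1.13 and 3.27 CPM in mutants. znf1148 had 3.86, 3.69 and 4.89 CPM, 4.89 CPM in replicate 1 and 1.69, 1.33 and 1.73 CPM in mutants. At 8 of the 10 genes replicate 1 was on the mutant side, with znf1147 and znf1148 as the exceptions. These groups of names were chosen after the values were seen.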
